A study of Xenopus laevis with 22 samples.

Results

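The gene rttn encodes rotatin, a large protein of the centriole, the cylinder of microtubules that anchors cilia and organises the centrosome. It was examined across all groups of a study of multiciliated cell differentiation in Xenopus laevis, as 1 gene of 13475 gene symbols listed in the expression tables. It was chosen with earlier results of these data in view, for its low level at 3 and 6 h in caps that received a dominant-negative E2f4. Those differences are therefore given as a description, with no test. Every expression table held 1 target (a transcript model to which fragments were assigned) named rttn. It lay on the minus strand of scaffold 23301 of the JGIv7b assembly, from 2048937 to 2135881, with a transcript of 7048 bases. A RefSeq gene table of a later assembly also lists 1 rttn gene, rttn.S, with socs6.S and tmx3.S among the genes near it.

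In human cells rotatin is needed to build centrioles of full length. It binds STIL, a protein of early centriole assembly, and brings the later components POC5 and POC1B to the growing centriole, and PPP1R35 acts beside it. The fly ortholog Ana3 keeps centrioles and centrosomes intact. Mouse embryos that lack the gene fail to turn and have faults of the left-right axis, and human mutations cause small brains and malformed cortex. Multiciliated cells build many centrioles at once, each of which becomes the basal body of a cilium.

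Animal caps, the ectoderm of the early embryo, were cut from injected embryos and cultured at 22 °C. Every RNA group carried Multicilin (MCIDAS-HGR), a coactivator that starts the multiciliated programme, here fused to a human glucocorticoid receptor domain and switched on with 20 µM dexamethasone. The dnE2f4 groups also received RNA for dominant-negative E2f4, a disabled form of the transcription factor with which Multicilin acts. Each group had 3 libraries, made from 20 caps each and collected 3, 6 and 9 h after induction (stages 13, 16 and 18). No RNA library lacked Multicilin, so no level without it was measured. The 2 ChIP-seq conditions were E2f4-GFP alone, with no dexamethasone stated, and E2f4-GFP with induced Multicilin. Both were collected at 6 h from about 300 caps and each has 1 peak set, pooled from 2 replicates. A cap holds several epidermal cell types, and the libraries are of whole caps.

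The 18 libraries held 9159519 to 38099850 estimated fragments. The e2f4 level checks the labels, since injected dnE2f4 RNA is counted with it. It was 16.4 to 38.2 CPM (counts scaled to library size, normalized by the TMM method) in 8 of 9 libraries labelled Multicilin, and 1443 to 9505 CPM in 8 of 9 labelled dnE2f4. The library labelled Multicilin 9 h replicate 2 had 1500 CPM of e2f4, and the library labelled dnE2f4 9 h replicate 2 had 15.8 CPM. Both went against their labels, so results at 9 h are given without them, and their rttn values are given under the labels they carry. Replicate 1 of dnE2f4 at 3 h and replicate 3 of dnE2f4 at 9 h had been scored against a longer list of 35532 targets in place of 24383. They were left out, as was the pair at 9 h, of the fit of 14 libraries behind the fold changes and tests. A fit that joined them by target position, with 16 libraries, was added after the data were seen.

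With Multicilin alone, rttn rose from 3 to 9 h. At 3 h its normalized level was 15.5, 14.5 and 12.6 CPM in replicates 1 to 3, from 443, 390 and 177 fragments. At 6 h it was 83.7, 96.8 and 99.4 CPM, from 1525, 2088 and 1791 fragments. At 9 h it was 174 and 171 CPM in replicates 1 and 3, from 2929 and 3172 fragments. The 3 times did not overlap, and the group means were 14.2 ± 1.46 (SD, n = 3), 93.3 ± 8.42 (SD, n = 3) and 173 ± 1.85 CPM (SD, n = 2). The library labelled Multicilin 9 h replicate 2 held 11.2 CPM, below every other library labelled Multicilin.

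At 6 h the level was 6.63-fold that at 3 h, a log2 fold change of 2.73 ± 0.14 (SE). Both of these groups entered the choice of rttn, so this value is a description with no test. Of the 20043 targets in that comparison, 25.7% were higher at 6 h at an edgeR adjusted p under 0.05, and 822 had a larger fold change than rttn. From 6 to 9 h the increase was 1.85-fold (log2 0.89 ± 0.14; edgeR quasi-likelihood test, Benjamini-Hochberg adjusted p = 0.000803), where 14.3% of targets were higher. From 3 to 9 h rttn rose 12.3-fold (log2 3.62 ± 0.15, edgeR adjusted p = 3.23e-09), where 33.4% of targets were higher and 1089 rose by more. With the library labelled Multicilin 9 h replicate 2 kept under its label, the log2 value from 6 to 9 h was 0.33 (edgeR adjusted p = 0.785) and that from 3 to 9 h was 3.09 (edgeR adjusted p = 0.00378). Each of these tests shares its 3 or 6 h libraries with the choice, which a high level with Multicilin favoured.

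In caps with dnE2f4, rttn stayed low. At 3 h it was 9.42, 6.72 and 5.24 CPM in replicates 1 to 3, from 150, 165 and 79 fragments. At 6 h it was 11.6, 10.7 and 11.3 CPM, from 368, 296 and 110 fragments. At 9 h it was 14.8 and 15.7 CPM in replicates 1 and 3, from 501 and 426 fragments. All dnE2f4 libraries that matched their labels lay within the range from 5.24 to 15.7 CPM, and the means were 7.13 ± 2.12, 11.2 ± 0.420 (SD, n = 3 each) and 15.3 ± 0.634 CPM (SD, n = 2). The library labelled dnE2f4 9 h replicate 2 held 146 CPM, the only one labelled dnE2f4 above 15.7. In dnE2f4 libraries that matched their labels, counting error alone was 4.47 to 11.3% of a library's value, largest in the library with 79 fragments. Its lowest value over all libraries was 1.78%, in replicate 3 of Multicilin at 9 h.

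A rise from 3 to 9 h was still measured there. At 6 h the level was 1.87-fold that at 3 h (log2 0.90 ± 0.16), in a comparison with 23.9% of targets higher, and 1.61-fold with the longer-list library joined in. As with Multicilin alone, both groups entered the choice of rttn and no test is given. In the fit of 14 libraries the dnE2f4 group at 9 h was 1 library, whose spread was taken from the other groups. From 6 to 9 h the log2 difference was 0.41 ± 0.18 and did not pass (edgeR adjusted p = 0.136, with 9.47% of targets higher). Over the whole span from 3 to 9 h the rise was 2.49-fold (log2 1.31 ± 0.20), against 12.3-fold with Multicilin alone. With the longer-list libraries joined in, 2 libraries at 9 h against 3 at 3 h, it was 2.22-fold (log2 1.15 ± 0.20). The 3 and 6 h groups of these comparisons also entered the choice. That choice favoured low levels with dnE2f4 at 3 and 6 h, which makes a rise to 9 h larger and a p smaller. The rises from 6 to 9 h and from 3 to 9 h with dnE2f4 are therefore descriptions with no test. With both libraries labelled replicate 2 at 9 h kept under their labels, the log2 values were 2.82 from 6 to 9 h and 3.75 from 3 to 9 h. The gap between the rises with and without dnE2f4 holds the differences for which rttn was chosen, so it was not tested.

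**Figure D1:**
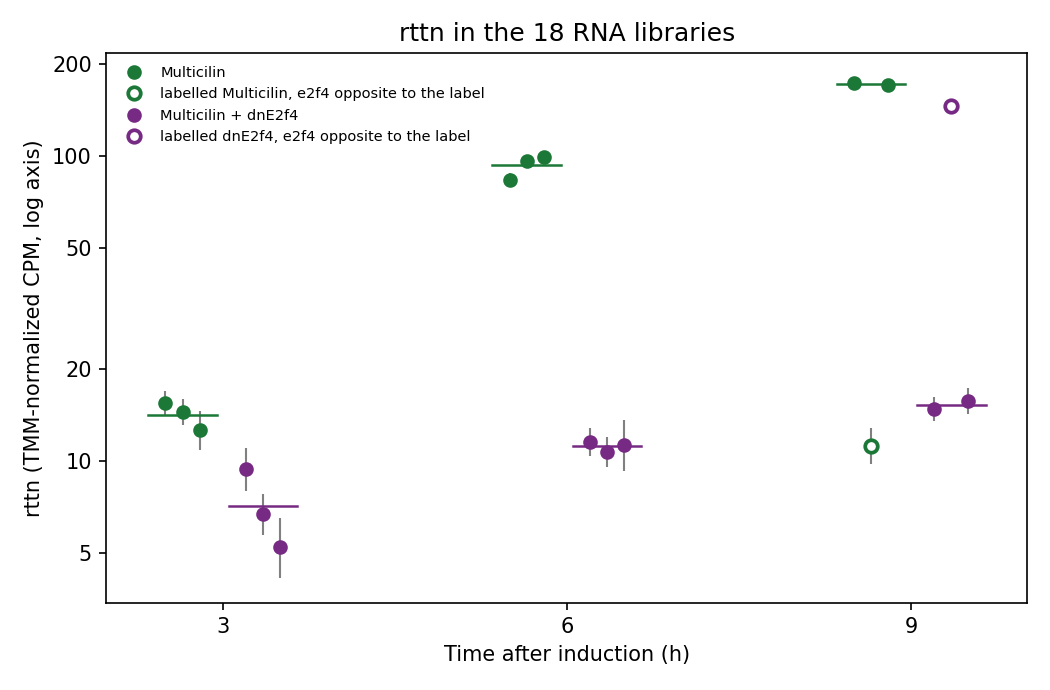
Normalized CPM of rttn (log axis) in each of the 18 RNA libraries against hours after induction. Points are libraries with 95% Poisson intervals, which cover counting error only. Horizontal lines are group means without the open points, which are the 2 libraries at 9 h whose e2f4 went against the label. The Multicilin libraries climb from about 14.2 to 173 CPM while the dnE2f4 libraries stay between 5.24 and 15.7.

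In order of mean CPM the groups ran from Multicilin 9 h and Multicilin 6 h through dnE2f4 9 h and Multicilin 3 h to dnE2f4 6 h and dnE2f4 3 h. Libraries of dnE2f4 at 9 h (14.8 and 15.7 CPM) overlapped those of Multicilin at 3 h (12.6 to 15.5 CPM). No other neighbours in this order overlapped. The order depended on the scaling. By the authors' FPKM (fragments scaled to transcript length and library size), dnE2f4 at 9 h averaged 2.33, below Multicilin at 3 h with 3.03. The FPKM of dnE2f4 at 6 h (2.01 to 2.23) lay within those of dnE2f4 at 9 h (1.97 and 2.69). Among all targets of a library, rttn stood on average at percentile 67.3 with Multicilin at 3 h, 91.6 at 6 h and 94.9 at 9 h, and at 57.0, 63.3 and 69.0 with dnE2f4.

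Set against each other at the same time, the Multicilin libraries were higher than the dnE2f4 libraries in every same-numbered pair that matched its labels. At 3 h the ratio of Multicilin to dnE2f4 was 1.65, 2.16 and 2.41 in replicates 1 to 3. At 6 h it was 7.24, 9.01 and 8.81, and at 9 h it was 11.7 and 10.9 in replicates 1 and 3. The 2 libraries labelled replicate 2 at 9 h stood the other way, with a ratio of 0.0768. In the fit, rttn was lower with dnE2f4 by 2.36-fold at 3 h (log2 -1.24 ± 0.16) and by 8.37-fold at 6 h (log2 -3.07 ± 0.14), the values it was chosen on. At 3 h the log2 value was -0.99 ± 0.19 with the longer-list library joined in. Of the 20043 targets, 590 were lowered further at 3 h and 38 at 6 h. At these times 0.284% and 3.44% of targets passed the edgeR test in either direction, or 57 and 690 targets, and 621 and 3191 with replicate number as a block.

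The 9 h libraries were not those of the choice, although it is not known whether their values had been seen. There rttn was lower with dnE2f4 by 11.6-fold (log2 -3.54 ± 0.23, edgeR adjusted p = 2.85e-05, 2 libraries against 1). In this comparison 0.918% of targets were lower, and 227 (1.13%) passed in either direction, against 2175 with replicate number as a block. With the longer-list library joined in, 2 libraries stood against 2 and the fold was 11.1 (log2 -3.48 ± 0.24, edgeR adjusted p = 9.80e-06). The test borrows its spread from the other groups. Fitted on the compared groups alone the difference was -3.56 and did not pass (edgeR adjusted p = 0.576). With both libraries labelled replicate 2 kept under their labels, 3 Multicilin against 2 dnE2f4 libraries of the common list, it was -0.59 (edgeR adjusted p = 1.0).

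**Figure D2:**
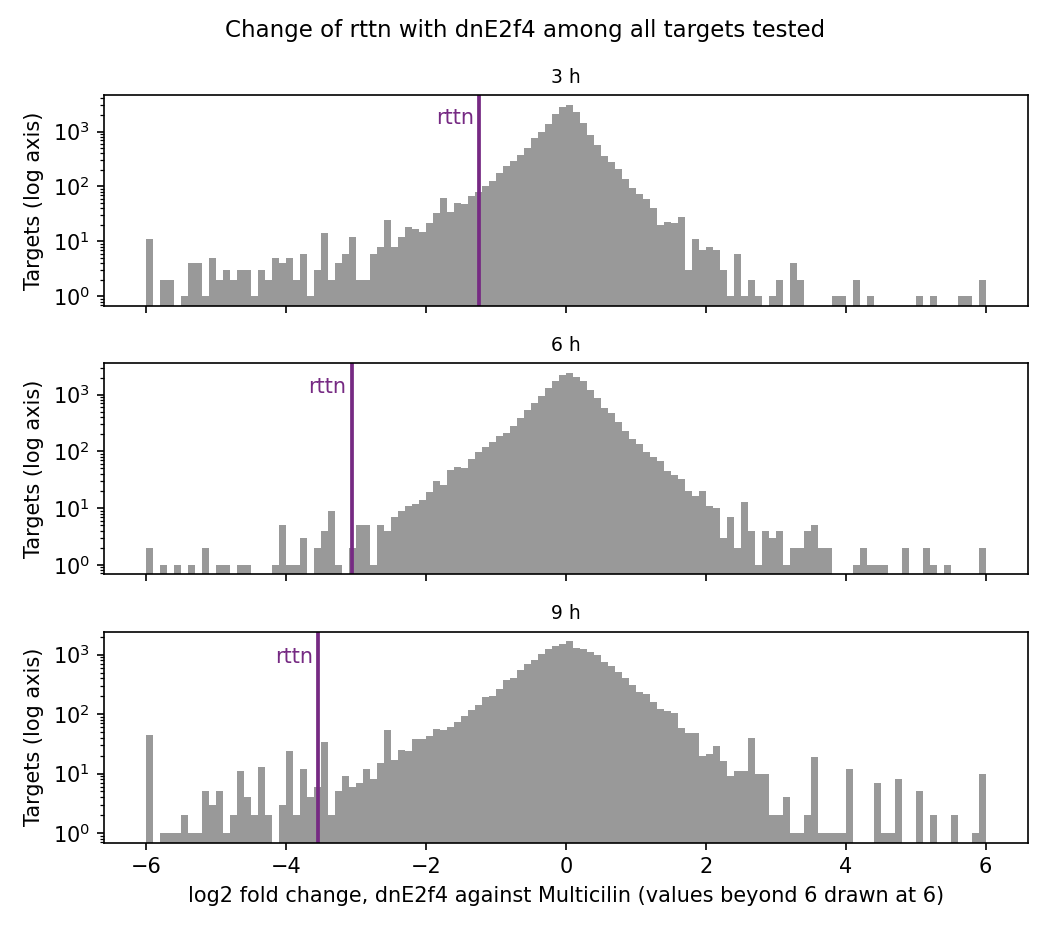
Histograms of the log2 fold change between dnE2f4 and Multicilin for the 20043 targets tested at 3, 6 and 9 h (number of targets on a log axis, bins of 0.1, values beyond 6 drawn at 6). The line marks rttn, at -1.24, -3.07 and -3.54, with 590, 38 and 147 targets to its left.

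The injected RNA and other cell markers also differed between the arms. The mcidas targets, which count injected Multicilin RNA too, summed to 1773 ± 316 CPM with Multicilin and 1081 ± 171 with dnE2f4 at 6 h (SD, n = 3 each), a ratio of 0.610. At 3 h the ratio was 0.666 and at 9 h it was 0.486, in the libraries of the fit. Per 1000 CPM of mcidas, rttn was 46.5 to 62.2 CPM in the 3 Multicilin libraries of 6 h and 9.66 to 12.1 CPM in the 3 dnE2f4 libraries. These ranges did not overlap. The 3 h ranges did, with 7.70 to 11.1 CPM in the Multicilin libraries and 4.48 and 8.71 CPM in the 2 dnE2f4 libraries of the fit. The longer-list dnE2f4 library of 3 h, outside the fit, held 9.42 CPM of rttn and 627 CPM of mcidas. Its rttn per mcidas was above that of every other 3 h library. At 9 h rttn per 1000 CPM of mcidas was 144 and 203 CPM with Multicilin and 29.8 CPM in the single dnE2f4 library of the fit. The longer-list dnE2f4 library of 9 h held 15.7 CPM of rttn and 441 CPM of mcidas.

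The 11 multiciliated cell markers found, such as foxj1, tekt2 and ift88, summed to 7848 to 8658 CPM with Multicilin and 6063 to 6275 CPM with dnE2f4 at 6 h. Of their 17 targets, 2 were lower with dnE2f4 at 6 h by edgeR, where 2.57% of all targets were lower. Their median log2 value was -0.44 at 6 h and -0.50 at 9 h. Summed goblet cell markers at 9 h were 6500 and 8973 CPM with Multicilin and 14816 CPM in the single dnE2f4 library of the fit. Most of that sum was otog, at 5415 CPM on average with Multicilin and 12049 CPM in that dnE2f4 library. In the same order agr3 was at 61.7 and 62.4 CPM. The median log2 value of the 9 goblet targets at 9 h was 0.03.

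Summed neural markers at 6 h were 6275 to 7522 CPM with Multicilin and 3509 to 5381 CPM with dnE2f4. The tubulin gene tubb2b alone made up 6818 of a mean of 6997 CPM and 4431 of 4524 CPM. With Multicilin tubb2b climbed from 2114 CPM at 3 h to 11008 CPM at 9 h. Over the same span sox3 fell from 103 to 67.3 CPM, ncam1 from 50.7 to 39.3 CPM and elavl3 from 49.2 to 14.8 CPM. Between the arms at 6 h these markers were also lower with dnE2f4. With Multicilin and with dnE2f4, sox3 averaged 95.5 and 40.6 CPM, ncam1 69.6 and 41.0 CPM, and elavl3 12.7 and 10.9 CPM. Of 13 neural targets 2 were lower at 6 h by edgeR, where 2.57% of all targets were lower. Their median log2 value was -0.40 at both 6 and 9 h. Summed ionocyte markers at 9 h were 433 and 490 CPM with Multicilin and 750 CPM in the single dnE2f4 library of the fit. There slc26a4 was at 49.8 CPM on average with Multicilin and 146 CPM in that dnE2f4 library. In the same order atp6v1b1 was at 40.7 and 123 CPM, and foxi1 at 36.4 and 85.8 CPM. Of 21 ionocyte targets 1 was higher at 6 h by edgeR, where 0.868% of all targets were higher. The median log2 value of the ionocyte targets was 0.45 at 6 h and 0.91 at 9 h. Summed ectoderm markers were 8709 to 10683 CPM against 9847 to 10654 CPM at 6 h. Mesoderm and endoderm markers summed to at most 81.3 CPM in any library of the fit. The part of mcidas and of these markers in the result was not tested, and in bulk caps fewer cells of a type cannot be told apart from less RNA per cell.

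Per length, rttn was one of the less abundant centriole transcripts. The authors' FPKM values (fragments scaled to transcript length and library size) averaged 3.03 ± 0.381 at 3 h, 16.8 ± 1.31 at 6 h (SD, n = 3 each) and 27.1 ± 1.49 at 9 h (SD, n = 2) with Multicilin. Among 49 targets of centriole genes, in lists for early assembly, for length and maturation, and for the appendages of the mature centriole, 10 had a lower mean FPKM than rttn with Multicilin at 6 h. The median of the 49 was 51.8 FPKM there. With dnE2f4 at 6 h rttn averaged 2.13 ± 0.108 FPKM (SD, n = 3), and 5 of the 49 targets were lower.

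The partners of rotatin differed in how far they moved with it. The transcript of stil, which encodes its binding partner, averaged 53.3 ± 2.60 FPKM at 3 h and 112 ± 26.9 FPKM at 6 h with Multicilin (SD, n = 3 each). It rose from 3 to 9 h by log2 1.72 ± 0.23 (edgeR adjusted p = 3.44e-05). With dnE2f4 it averaged 35.1 ± 6.16 FPKM at 6 h (SD, n = 3). It was lower with dnE2f4 by log2 -1.76 ± 0.22 at 6 h (edgeR adjusted p = 0.0016) and -2.06 ± 0.35 at 9 h (edgeR adjusted p = 0.0179). These values had the same sign as those of rttn and were nearer to 0.

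The gene ppp1r35, whose product acts with rotatin in elongation, rose from 3 to 9 h by log2 1.64 ± 0.29 with Multicilin (edgeR adjusted p = 0.000348). Its difference with dnE2f4 at 9 h was -1.18 ± 0.42 and did not pass (edgeR adjusted p = 0.209). The gene poc5, for a centrin-binding protein of the distal centriole, rose from 3 to 9 h by log2 3.73 ± 0.30 (edgeR adjusted p = 3.72e-07), where rttn rose by 3.62 ± 0.15. Between the arms the log2 value of poc5 with dnE2f4 was -0.65 ± 0.26 at 6 h and did not pass (edgeR adjusted p = 0.225). At 9 h it was -1.21 ± 0.40, with 1 dnE2f4 library in the fit. With dnE2f4 poc5 still rose from 3 to 9 h by log2 3.31 ± 0.38, where rttn rose by 1.31 ± 0.20. The rise with dnE2f4 over that span was 1.30 ± 0.39 for ppp1r35 and 0.86 ± 0.31 for stil. The gene poc1b, for a protein of the centriole wall, had values of -0.60 ± 0.26 from 3 to 9 h with Multicilin (edgeR adjusted p = 0.0562) and 0.78 ± 0.32 with dnE2f4 at 9 h (edgeR adjusted p = 0.289), neither of which passed.

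Further genes of elongation were lower with dnE2f4 at 9 h by edgeR. The log2 value was -1.70 ± 0.27 for kiaa1731, which encodes CEP295, a protein needed to turn new centrioles into centrosomes (adjusted p = 0.0139). It was -1.21 ± 0.21 for cep120, which promotes centriole growth (adjusted p = 0.0204), and -1.51 ± 0.23 for spice1 (adjusted p = 0.0131). Both kiaa1731 and cep120 nevertheless rose in dnE2f4 caps from 3 to 9 h, by log2 2.50 ± 0.24 and 2.23 ± 0.19. The rise of spice1 there was 1.12 ± 0.21.

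Of the 49 targets in the centriole lists, 42 were higher at 9 h than at 3 h with Multicilin and 4 were lower, where 33.4% of all targets were higher and 32.8% lower. In early assembly 9 of 12 were higher and 3 lower, with a median log2 value of 0.97. The gene plk4, for the kinase that starts centriole duplication, rose at both of its 2 targets. The values were 4.55 ± 0.31 (edgeR adjusted p = 9.05e-08) and 2.66 ± 0.24 (edgeR adjusted p = 1.04e-06). In length and maturation 22 of 24 were higher and 0 lower, with a median of 1.95, and tubd1, which had the lowest adjusted p, was at 3.48 ± 0.15 (edgeR adjusted p = 4.77e-09). Among the appendage genes 11 of 13 were higher and 1 lower, with a median of 3.18, and sclt1, which had the lowest adjusted p, was at 4.01 ± 0.17 (edgeR adjusted p = 3.67e-09). The median over all targets was -0.00106. In this comparison 42 of the 49 list targets rose less than rttn or fell.

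With dnE2f4 the lists still rose from 3 to 9 h. There 36 of the 49 targets were higher and 4 lower, where 29.0% of all targets were higher and 26.7% lower, and the list medians were 0.42, 1.38 and 2.90 against 0.04 over all targets. The rise of rttn, at 1.31, was above that of 25 of the 49 list targets and below that of 24.

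Between the arms at 6 h, 31 of the 49 list targets were lower with dnE2f4 and 0 were higher, where 2.57% of all targets were lower and 0.868% higher. The medians were -1.38 for early assembly, -0.85 for length and maturation and -0.79 for appendages, against 0.03 over all targets. At 9 h, with 1 dnE2f4 library in the fit, the medians were -1.78, -1.21 and -0.98 against 0.02. The lowest adjusted p in each list at 9 h belonged to cep152, a scaffold that recruits PLK4, at -2.25 ± 0.23 (edgeR adjusted p = 0.00233), to sfi1, a centrin-binding protein, at -1.91 ± 0.22 (edgeR adjusted p = 0.00332), and to cep164 of the distal appendages, at -1.72 ± 0.30 (edgeR adjusted p = 0.0204). None of the 49 had a lower log2 value than rttn at 9 h, nor at 6 h, where that follows in part from the choice of rttn. At 3 h 8 of the 49 had a lower log2 value than rttn. Genes with 2 targets, such as plk4, cep152 and cep164, may share fragments between them, which was not checked, and their values per target are uncertain. The libraries keep no strand information, so fragments of a gene on the opposite strand at rttn would be counted with it. All fragments of rttn were unique to it in 18 of 18 libraries, as they were for 18.5 to 19.0% of targets with at least 10 fragments in a library.

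**Figure D3:**
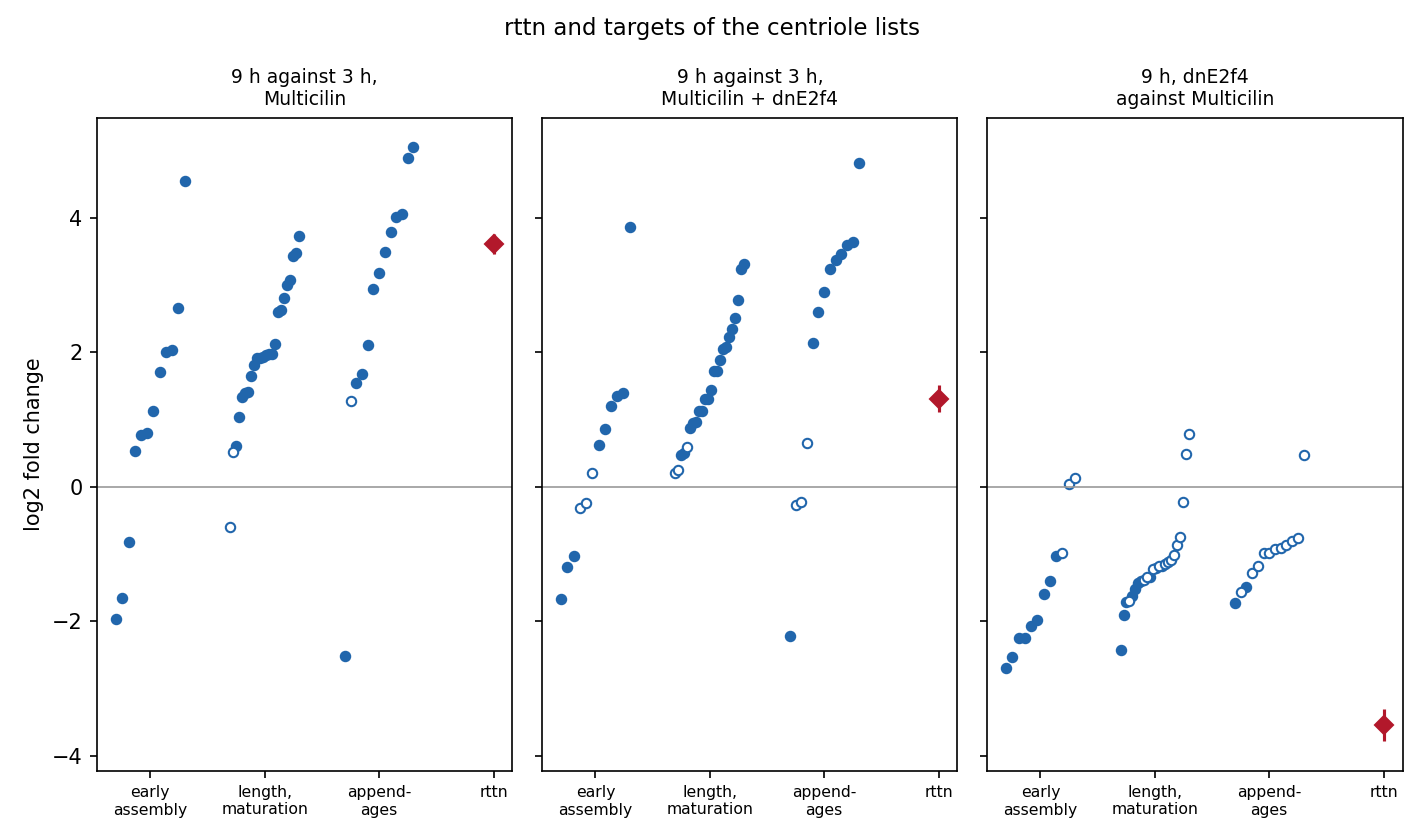
Log2 fold changes of the targets in the 3 centriole lists (12, 24 and 13 targets, sorted by value) and of rttn (diamond, with its SE) in 3 comparisons. Filled points passed the edgeR test at an adjusted p under 0.05 and open points did not. In the right panel rttn, at -3.54, lies below all 49 list targets. In the middle panel, at 1.31, it lies among them.

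The genes whose profile was most like that of rttn were found by Pearson's r of log2(CPM + 1) over the 14 libraries, among 11989 symbols. The 10 highest were mink1, a kinase (r = 0.979), c19orf26 (0.973), smap2 (0.972), sfi1 (0.971), prkar2b (0.970), cep350, for a centrosomal protein (0.966), tbc1d8 (0.964), tubg1, for gamma-tubulin (0.964), stil (0.962) and tmem136 (0.958). These r values describe libraries that share groups and times, and part of the likeness comes from the difference on which rttn was chosen. Of all symbols ranked, 104 (0.867%) had an r above 0.9. Among centriole genes, sfi1 ranked 4, stil 9 and ccp110, for a protein that caps the centriole, 13, while poc5 ranked 1079 and poc1b 10455.

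The like genes moved less than rttn, which follows in part from its choice, since r takes no account of the size of a change. From 3 to 9 h with Multicilin their log2 values ran from 0.76 for smap2 to 2.68 for mink1, against 3.62 for rttn. With dnE2f4 at 9 h they ran from -0.68 for smap2 to -2.61 for c19orf26, against -3.54 for rttn. The level of c19orf26 was low, from 0.466 CPM with dnE2f4 at 3 h to 0.930 CPM in the 1 dnE2f4 library of 9 h.

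**Figure D4:**
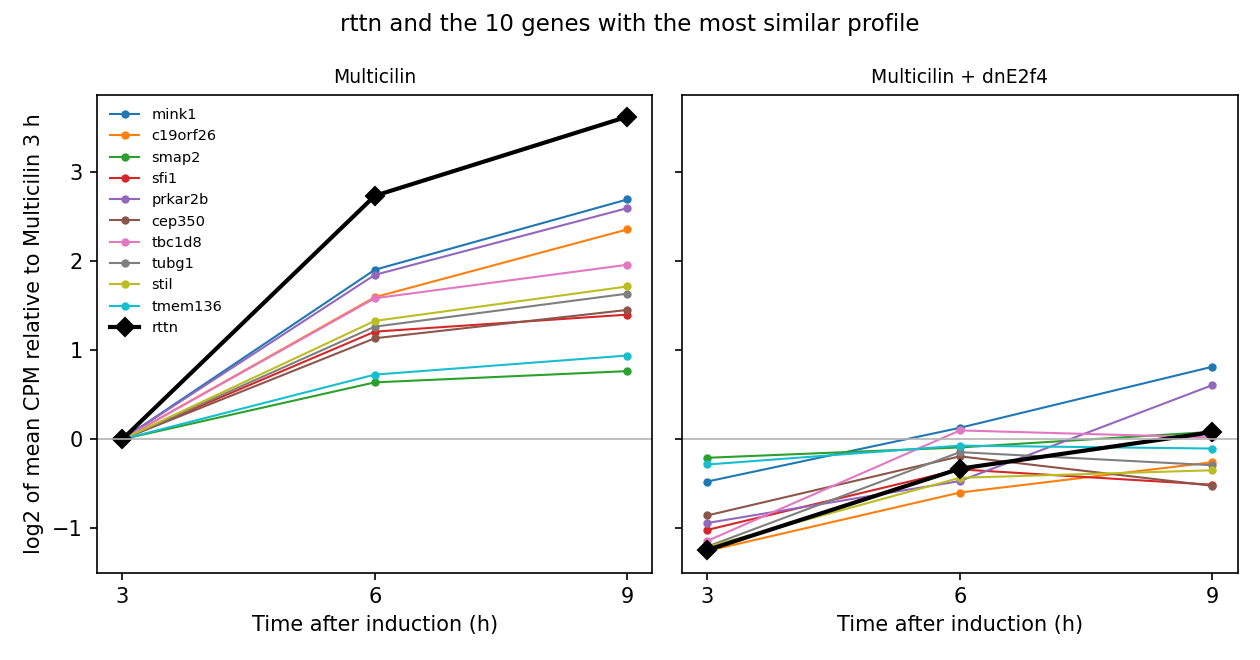
Mean CPM in each group relative to Multicilin at 3 h (log2) for rttn and the 10 genes with the most similar profile, in caps with Multicilin (left) and Multicilin with dnE2f4 (right), over the 14 libraries. All 11 lines climb on the left, rttn the most, to 3.62. On the right they stay near or below the starting level of 0, apart from mink1 and prkar2b at 9 h.

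A peak of E2f4-GFP lay just upstream of the rttn start in both ChIP conditions. Without Multicilin it ran from 2135904 to 2136100 on scaffold 23301, with its centre 121 bases upstream of the start. With Multicilin it ran from 2135925 to 2136135, with its centre 149 bases upstream. The 2 peaks shared 176 bases, 89.3% of the narrower one, and their centres were 28 bases apart. No peak centre fell inside the 86945 bases of the gene in either set. The deposited scores are the same for every peak, so occupancy with and without Multicilin could not be compared.

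A peak centre within 1000 bases of the start was common in these sets of 15693 and 12778 peaks, called from 24997566 and 15313243 sequence tags. It was found for 27.2% of all 24383 targets without Multicilin, for 19.7% with it and for 15.2% in both. In both sets it was found for 8 of 12 targets of early assembly, 12 of 24 of length and maturation and 7 of 13 of the appendages. Among the partners, poc5, poc1b, cep120 and spice1 had a start peak in both sets, whereas stil, ppp1r35 and kiaa1731 had none within 1000 bases in either. Of 3664 tested targets with a start peak in both sets, 34 were lower and 1 higher with dnE2f4 at 3 h by edgeR, where 0.269% of all targets were lower and 0.015% higher. At 6 h 233 were lower and 29 higher, against 2.57% and 0.868% of all targets, and at 9 h 109 were lower and 6 higher, against 0.918% and 0.215%. Their median log2 values were -0.06, -0.02 and -0.06. At 9 h 8 of them had a lower log2 value than rttn.

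**Figure D5:**
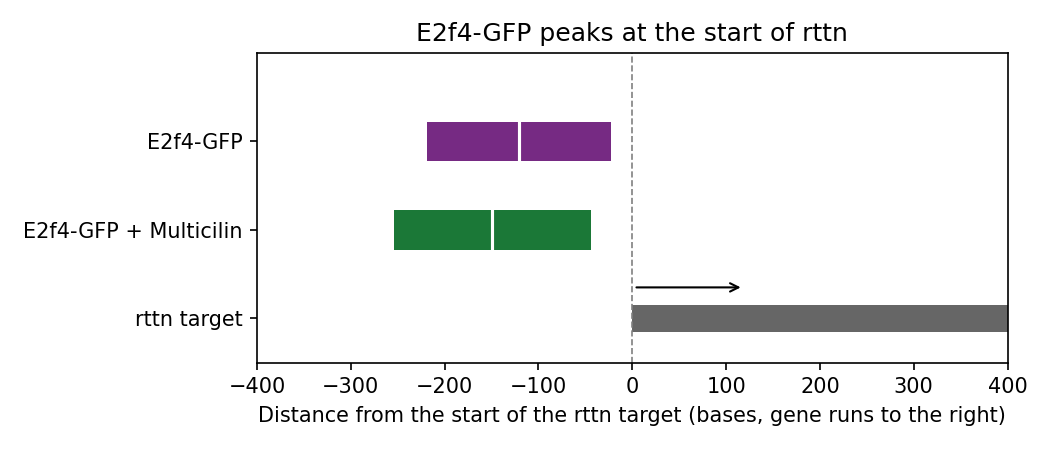
Extent of the E2f4-GFP peaks without Multicilin (top bar) and with it (middle bar) by distance in bases from the start of the rttn target (grey bar, arrow in the direction of transcription). White lines are the peak centres, 121 and 149 bases upstream, and the bars overlap over 176 bases.

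For the neighbours of rttn on the scaffold, no difference between the arms passed the test. The nearest target downstream, tmx3, for a protein disulfide isomerase of the endoplasmic reticulum, lay 196870 bases away on the same strand. Its log2 value with dnE2f4 was 0.16 ± 0.16 at 6 h and 0.34 ± 0.23 at 9 h (edgeR adjusted p = 0.709 and 0.530). It had a peak centred 116 bases from its start in the set without Multicilin, and none within 1000 bases in the set with it. The set with Multicilin had fewer tags, and the part of tag depth in this difference was not tested. On the other side socs6, for a suppressor of cytokine signalling, lay 59878 bases away on the plus strand. Its log2 value with dnE2f4 was -0.02 ± 0.20 at 6 h and -0.10 ± 0.29 at 9 h (edgeR adjusted p = 0.985 and 0.914), and it had no start peak in either set.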

How the data were processed

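RNA-seq was read from 18 deposited tables of eXpress, which give estimated counts (expected counts), uniquely assigned counts and FPKM per target, per the file headers. The deposited estimated counts and unique counts carry no normalization, and the deposited FPKM values were made by the authors. STAR, eXpress, DESeq, Bowtie2, Bowtie and HOMER are named, with no version or role, per the submitters' processing notes. Peaks were called with HOMER on pooled tags, per the file headers, which give an FDR of 0.001 and a 4-fold minimum against both input and surroundings, with 24997566 tags without Multicilin and 15313243 with it. The deposited peak score holds 1 value throughout.

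After rounding and the filterByExpr filter, estimated counts were scaled by TMM and compared in R 4.3.3 by the quasi-likelihood F test of edgeR 4.0.16, with a mean per group, over all targets, with Benjamini-Hochberg adjustment and a threshold of 0.05. The fit held 14 libraries: those of the common target list without the pair labelled replicate 2 at 9 h. DESeq2 1.42.0 was an alternative, beside other library sets, sums by symbol, other filters, the compared groups alone and leaving out each replicate. The analysis was tested on simulated data for changes with time only, with libraries drawn independently, so comparisons between the arms were not covered. The planned tests of rttn between 3 and 6 h within each arm are given without a p-value, since both groups entered its choice. So are the planned tests from 6 to 9 h and from 3 to 9 h with dnE2f4, since the choice favoured low levels at 3 and 6 h. Depth per library was 9159519 to 38099850 estimated fragments, and Poisson intervals cover counting error only.

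The lists, the rule for named genes and rttn itself were chosen with earlier results of these data known. Named were rttn, e2f4 and mcidas, genes acting beside rotatin, the nearest target on each side, the 10 symbols with the highest correlation, and those of lowest adjusted p in each list. The tables list CEP295 as kiaa1731. Same-numbered libraries of the 2 arms deviated together from their group means, with correlations of 0.248 and 0.452 at 3 h and 0.761, 0.559 and 0.654 at 6 h over targets. At 9 h this could not be checked. Nothing in the labels explains the replicate numbers or ties replicates to separate animals, so p-values measure the spread between these samples. No pair of libraries within a group was a duplicate (lowest chi-square per degree of freedom 13.8). Promoter and protein sequences were not used here.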

Additional observations from a re-analysis of the deposited data

How the results depend on the processing

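The values of rttn kept their direction under all alternatives tried. The log2 rise from 3 to 6 h with Multicilin ran from 2.48 to 2.83 and the difference between the arms at 6 h from -3.14 to -2.97. With the 9 h pair kept under its labels in 16 libraries, or summed by symbol in 18, the rise with Multicilin from 6 to 9 h was 0.33 and 0.33 and did not pass. The value with dnE2f4 from 3 to 6 h, given with no test, was 0.93 and 0.85, with SEs of 0.90 and 0.88. The difference between the arms at 9 h was then -0.59 and -1.05, and -3.56 in the compared groups alone, none of which passed. The rise with dnE2f4 from 6 to 9 h, given with no test, was 2.82 in the 16 libraries. The compared groups alone leave fewer samples to estimate spread, and the pair under its labels puts opposite levels into a group.

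The difference at 3 h was -0.99 with 16 libraries joined by position and -1.43 to -1.09 when single replicates were left out, lowest without replicate 2 of dnE2f4. The lone dnE2f4 library of 9 h could not be left out of the fit of 14. With replicate number as a block, rttn was -1.24, -3.07 and -3.55 between the arms at 3, 6 and 9 h, and no call on rttn changed. The block raised the targets called from 5767 to 9206 for Multicilin from 6 to 9 h and from 3826 to 6830 for dnE2f4. List targets lower with dnE2f4 at 9 h numbered 21, or 37 by DESeq2 and 39 with the block. Calls over all targets at 9 h also rose under both settings, by a larger factor, so the increase was not particular to the lists. The dnE2f4 group of this comparison was 1 library.

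Targets called between the arms at 3 h numbered 57, but 403 by DESeq2, 18 in the joined libraries and 2 in the compared groups alone. They numbered 2 without dnE2f4 replicate 2 or 3, 16 and 3 without Multicilin replicate 1 or 2, and 202 without Multicilin replicate 3. At 6 h 690 stood against 1409 by DESeq2, 277 joined, 403 in the compared groups alone and 296 summed by symbol. Without Multicilin replicates 2 and 3 they were 431 and 205, and without dnE2f4 replicates 2 and 3 they were 241 and 285. At 9 h 227 stood against 1058 by DESeq2, 403 summed by symbol, 1 in the compared groups alone and 27 without Multicilin replicate 3. With the pair kept under its labels in 16 libraries the count was 0 at each of these times by edgeR, with 871, 1904 and 120 targets at an unadjusted p under 0.05 at 3, 6 and 9 h. For the changes with time, sums by symbol tested fewer features and called 5208 to 5415, 2497 to 2811 and 6960 to 7093 with Multicilin (6 against 3, 9 against 6 and 9 against 3 h), where 10444, 5767 and 13258 targets were called. With dnE2f4 they called 5046 to 5255 from 3 to 6 h and 6726 to 7114 from 3 to 9 h, against 9248 and 11170. From 6 to 9 h, 3787 targets were called without Multicilin replicate 1 of 9 h, 2541 with dnE2f4 without its replicate 3 of 6 h, and 1466 with dnE2f4 in the compared groups alone. Depth limits rttn most at 3 h with dnE2f4, where a library held as few as 79 fragments. The planned motif search in promoters was not run.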
